A study of Homo sapiens with 18 samples.

Results

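Gene counts from RNA sequencing were compared between RepSox and its vehicle DMSO in HT-29 iZEB1 cells that had received no doxycycline (DOX). The 6 libraries were chosen by their labels, 3 with RepSox and 3 with DMSO, out of 18 libraries in the series, and all genes of the count table were included. HT-29 is an established human colorectal cancer line of epithelial character, and HT-29 iZEB1 carries a construct from which DOX switches on ZEB1, a transcription factor that represses epithelial genes. The other 12 libraries are 3 each of HT-29 iZEB1 with RepSox and DOX, HT-29 iZEB1 with DMSO and DOX, SW620 with RepSox and SW620 with DMSO. SW620 is a human colorectal cancer line that was given no inducer. The dose of RepSox was 10 µM, given over 24 h, and that of DOX 1 µg per ml. For the length of DOX exposure the treatment protocol has 24 h and the design text 48 h. That protocol describes HT-29 iZEB1 cells given RepSox together with DOX, so that the absence of DOX in the 6 libraries rests on their condition label and library names. The HT-29 cells are not described as a clone or a pool. Nothing in the labels tells separate cultures from repeat preparations of 1 culture, so the p-values cover the spread among these libraries, which may be technical.

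RepSox inhibits ALK5, a receptor kinase encoded by TGFBR1 that serves TGF-β as its type I receptor. A TGF-β ligand brings its type II receptor together with ALK5, ALK5 phosphorylates SMAD2 and SMAD3, and these enter the nucleus with SMAD4 to switch target genes on or off. Among the targets are inhibitors that close the loop, such as SMAD7 and SKIL. In intestinal epithelium the pathway restrains growth, and many colorectal cancer lines carry lesions in it.

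The RepSox libraries held 36.8, 36.7 and 38.5 M counts and the DMSO libraries 36.7, 36.5 and 36.5 M. Along principal component 1, which carried 45.1% of the variance among the 6 libraries, the RepSox libraries lay between 26 and 28.6 and the DMSO libraries between -28.5 and -26.7. Markers of a colonic epithelial line were present: EPCAM stood at 592 ± 21.3 CPM with RepSox and 642 ± 28.8 CPM with DMSO (CPM are counts scaled to the TMM-adjusted library size; SD, n = 3 each). The intestinal transcription factor genes CDX1 and CDX2 were both below 1 CPM in each group. Of 10 fibroblast markers 5 had no count in the 6 libraries and 2 had enough to be tested, with summed levels of 0.786 to 1.157 CPM with RepSox and 1.353 to 1.447 CPM with DMSO. Of 10 leukocyte markers 1 had no count and 4 were tested, and LYZ, which secretory gut epithelium also expresses, made up most of their sum at 1167 ± 69.2 CPM with RepSox and 1313 ± 37.2 CPM with DMSO (SD, n = 3 each). Of 10 endothelial markers 5 had no count and 3 were tested, with sums of 50.28 to 56.68 CPM with RepSox and 57.91 to 66.37 CPM with DMSO. All 12 markers of the colonic line were tested, and 4 were called lower, while 1 leukocyte marker, ITGAM, was called higher, a call lost without DMSO replicate 1 or RepSox replicate 3. Of the 3 tested endothelial markers TEK was called higher and the other 2, PECAM1 and ESAM, lower. With 1 library left out, the calls for lower endothelial markers numbered 0 to 2. In bulk RNA, fewer cells that express a gene and less RNA per cell cannot be told apart.

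RepSox changed many genes, mostly by small factors, and nearly equal numbers moved each way. The quasi-likelihood test of edgeR called 4290 of 16978 tested genes (25.3%) at an adjusted p below 0.05, with 2114 higher (12.5%) and 2176 lower (12.8%). A change of at least 2-fold was found in 445 of them (2.62% of tested genes), 164 higher and 281 lower. The median log2 fold change over all tested genes was -0.01.

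Among genes that reached 5 CPM in 1 of the groups without overlap, the largest rise was that of MRAS, which encodes a RAS-family small GTPase that with SHOC2 activates RAF kinases (chr3:138347648-138405534, plus strand, protein-coding, GENCODE 29 on GRCh38). Its level was 16.0, 15.4 and 17.1 CPM with RepSox, against 1.00, 0.803 and 0.856 CPM with DMSO. No library of one group came near those of the other (43.5% of tested genes had no overlap between groups), and the rise was 18.2-fold (log2 fold change 4.18, SE 0.14, edgeR adjusted p = 1.32e-12). The next largest rise was that of CEACAM6, a surface glycoprotein of the carcinoembryonic antigen family (chr19:41750977-41772208, plus strand, protein-coding, GRCh38). CEACAM6 stood at 34.4, 36.2 and 36.7 CPM with RepSox, against 8.68, 8.39 and 8.89 CPM with DMSO, 4.13-fold higher (log2 2.05, SE 0.11, adjusted p = 5.75e-10). FCGBP, a mucus protein that binds IgG Fc (chr19:39863323-39934626, minus strand, protein-coding, GRCh38), stood at 7.85, 6.68 and 7.90 CPM with RepSox and at 2.12, 2.30 and 1.74 CPM with DMSO, 3.65-fold higher (adjusted p = 9.79e-09). The endothelial angiopoietin receptor gene TEK rose 3.53-fold, to 8.62, 8.31 and 7.48 CPM with RepSox against 2.62, 1.69 and 2.60 CPM with DMSO (adjusted p = 6.38e-08), while the other tested endothelial markers fell, ESAM by 1.29-fold (adjusted p = 0.0142, and 0.0814 and 0.0705 without DMSO replicate 1 or RepSox replicate 3) and PECAM1 by 1.98-fold at levels below 1 CPM (adjusted p = 0.0417). The other 11 of the 15 largest rises ran from 3.6-fold to 2.52-fold. They were CHST4, a mucin-type sulfotransferase, CEACAM5, the alcohol dehydrogenase ADH1C, the GABA receptor subunit GABRP, the proteoglycan CSPG4, the anion transporter SLC26A9, the neutral sphingomyelinase SMPD3, the adrenergic receptor ADRA2A, AC022075.1, MIR205HG and TMEM231. AC022075.1 is annotated as an antisense RNA, and without strand information its reads cannot be told apart from those of an overlapping gene. Among the genes with the smallest p, CD24, a mucin-like surface protein, was 1.97-fold higher at 773, 722 and 746 CPM with RepSox and 392, 365 and 381 CPM with DMSO (log2 0.98, adjusted p = 4.44e-09).

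The falls within the same limits were led by SULT2B1, a sulfotransferase of cholesterol and other sterols (chr19:48552075-48599425, plus strand, protein-coding, GRCh38). SULT2B1 stood at 4.08, 2.95 and 3.54 CPM with RepSox and at 25.7, 23.1 and 24.1 CPM with DMSO, 6.89-fold lower (log2 -2.78, SE 0.13, adjusted p = 1.54e-10). BMF, a BH3-only protein that binds and opposes BCL2 (chr15:40087890-40108892, minus strand, protein-coding, GRCh38), stood at 2.29, 1.82 and 1.82 CPM with RepSox and at 13.1, 11.4 and 12.8 CPM with DMSO, 6.28-fold lower (log2 -2.65, SE 0.14, adjusted p = 5.3e-10). PLA2G4F, a cytosolic phospholipase A2, was 4.64-fold lower, at 2.29, 1.57 and 1.16 CPM with RepSox and 7.29, 8.72 and 7.26 CPM with DMSO (adjusted p = 2.1e-07). EGR1, a zinc-finger transcription factor of the immediate-early response, was 3.7-fold lower, at 7.91, 9.15 and 9.73 CPM with RepSox and 32.6, 34.1 and 32.5 CPM with DMSO (adjusted p = 5.01e-10). The other 11 of the 15 largest falls within the same limits ran from 4.62-fold to 2.95-fold. They were sciellin SCEL, the cytochrome P450 gene CYP4F12, the anthrax toxin receptor ANTXR2, the lysyl oxidase-like enzyme LOXL4, BAIAP3, MAB21L4, LINC02432, the cAMP-regulated exchange factor RAPGEF3, the immune checkpoint protein VSIR, TMEM184A and MYO15B. All 30 genes stayed past the threshold in each of 13 alternative settings, with the highest adjusted p at 0.000404.

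**Figure D1:**
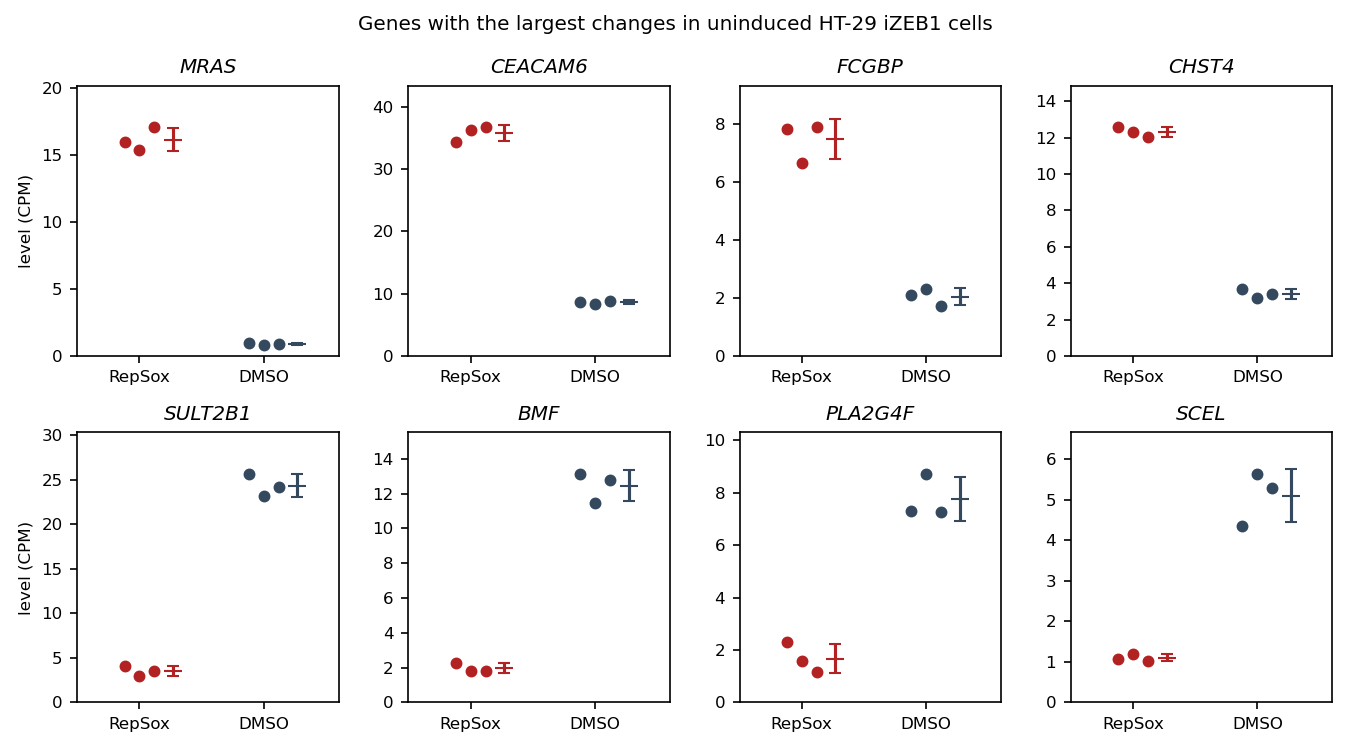
Levels (CPM, linear axes from 0) of the 4 genes with the largest rise (top) and the 4 with the largest fall (bottom) among genes that reached 5 CPM, 1 point per library, RepSox left and DMSO right, with the mean ± SD of 3 libraries beside the points. Only genes without overlap between the groups were eligible. MRAS lies at 15.4 to 17.1 CPM with RepSox and at 0.803 to 1.00 CPM with DMSO.

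Promoter sequences are shown for the leading riser, the leading faller and ID1, a classical SMAD target that fell, so that the sites discussed for these pathways can be seen in context. They are RefSeq sequences on GRCh38.p14, from 250 bases before to 50 bases after the first listed start. Capitals mark 5 motifs on either strand, where present: GTCTAGAC and CAGACA (SMAD3 and SMAD4), GGCGCC (a GC-rich SMAD element), GCGTG (the core of the aryl hydrocarbon receptor element) and CACCTG (an E-box that ZEB1 binds). MRAS has 3 listed starts, and SULT2B1 and ID1 have 1 each. The MRAS window is chr3:138348329-138348628, plus strand, that of SULT2B1 chr19:48551922-48552221, plus strand, and that of ID1 chr20:31605039-31605338, plus strand.
MRAS: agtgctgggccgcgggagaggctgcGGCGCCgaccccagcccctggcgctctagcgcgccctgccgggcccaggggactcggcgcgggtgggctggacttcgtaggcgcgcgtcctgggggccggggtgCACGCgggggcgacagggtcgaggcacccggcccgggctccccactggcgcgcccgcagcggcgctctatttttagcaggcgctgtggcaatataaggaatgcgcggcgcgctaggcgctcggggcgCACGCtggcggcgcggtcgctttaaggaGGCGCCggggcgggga
SULT2B1: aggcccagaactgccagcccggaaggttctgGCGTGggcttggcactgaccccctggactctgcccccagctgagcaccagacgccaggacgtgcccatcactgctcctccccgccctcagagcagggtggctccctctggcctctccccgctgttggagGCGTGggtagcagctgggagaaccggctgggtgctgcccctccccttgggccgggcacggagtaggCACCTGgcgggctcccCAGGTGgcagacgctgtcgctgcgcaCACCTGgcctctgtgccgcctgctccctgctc
ID1: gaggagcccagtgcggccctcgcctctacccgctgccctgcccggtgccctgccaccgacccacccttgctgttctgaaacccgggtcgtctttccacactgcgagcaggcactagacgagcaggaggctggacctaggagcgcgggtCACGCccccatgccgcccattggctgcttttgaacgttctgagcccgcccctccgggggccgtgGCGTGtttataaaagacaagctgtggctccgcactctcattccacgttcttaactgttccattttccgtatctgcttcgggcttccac

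The MRAS window holds 2 GGCGCC and 2 GCGTG motifs, that of SULT2B1 3 CACCTG and 2 GCGTG, and that of ID1 2 GCGTG. Among 27305 RefSeq promoters of the same length, 20.6% hold CACCTG, 36.3% GCGTG, 19.0% GGCGCC, 16.8% CAGACA and 0.201% GTCTAGAC. A match describes these letters and is not a binding site. Of the other promoters searched, CEACAM6 holds 1 CAGACA, SKIL 1 GGCGCC, BMF 1 GCGTG, FCGBP and PLA2G4F 1 CACCTG each, and SMAD7 none of the 5. SMAD7 has 3 listed starts and BMF 2, and only the first was searched. The sequence of a microRNA is shown for MIR205HG (chr1:209428820-209432838, plus strand, GRCh38), the host transcript of miR-205, which stood at 4.82, 5.67 and 6.42 CPM with RepSox and 1.48, 2.52 and 2.40 CPM with DMSO (2.64-fold higher, adjusted p = 3.47e-05). The mature microRNA was not measured. Its seed, bases 2 to 8, is in capitals in the RefSeq sequence on GRCh38.p14 (chr1:209432166-209432187, plus strand).
hsa-miR-205-5p: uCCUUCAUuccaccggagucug

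Among genes of the TGF-β pathway SMAD3 and the inhibitors SMAD7 and SKIL fell, and more targets fell than rose. Called were 2 of 10 tested receptors (20%) and 5 of 15 tested ligands and antagonists (33.3%), against 25.3% of all tested genes. The gene of the receptor that RepSox inhibits, TGFBR1, stood at 26.8, 24.4 and 23.7 CPM with RepSox and at 21.7, 18.5 and 23.6 CPM with DMSO (log2 0.23, adjusted p = 0.067). The lowest RepSox library lay just above the highest DMSO library. The gene passed the threshold with DESeq2 (adjusted p = 0.0482), without DMSO replicate 3 (0.0281) and with the 6 libraries fitted alone (0.0345). Of 10 tested receptors the co-receptor TGFBR3 was 1.48-fold higher (adjusted p = 1.43e-05), and BMPR2, the BMP type II receptor, was 1.16-fold lower (adjusted p = 0.0437, lost without any of 4 libraries in turn). Of 15 tested ligands and antagonists 3 rose and 2 fell, among them the latency proteins LTBP1, 1.87-fold higher, and LTBP3, 1.38-fold lower. TGFB1 was 1.24-fold lower (adjusted p = 0.0126, and 0.0544 to 0.0633 without DMSO replicate 1, DMSO replicate 2 or RepSox replicate 2).

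SMAD3 stood at 99.6, 96.0 and 101 CPM with RepSox and at 162, 159 and 162 CPM with DMSO, 1.63-fold lower with no overlap (log2 -0.70, SE 0.05, adjusted p = 3.49e-08). SMAD7, which blocks the receptor, stood at 13.7, 14.0 and 13.1 CPM with RepSox and at 20.4, 18.7 and 18.3 CPM with DMSO (1.41-fold lower, adjusted p = 0.000727). SKIL, which encodes the SMAD co-repressor SnoN, stood at 62.7, 60.3 and 63.5 CPM with RepSox and at 80.5, 78.0 and 91.3 CPM with DMSO (1.34-fold lower, adjusted p = 0.00331). All 3 lay lower in every RepSox library than in any DMSO library. Of 16 tested SMADs and SMAD regulators 6 fell and 2 rose, with a median log2 change of -0.15. The ubiquitin ligase SMURF2 was also lower (1.28-fold), and the risers were SMAD1, a SMAD of the BMP branch (1.21-fold), and PMEPA1, a TGF-β-induced inhibitor (1.42-fold, adjusted p = 1.11e-05).

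Of 34 tested TGF-β targets 14 fell and 5 rose, with a median log2 change of -0.28. JUNB, an AP-1 subunit, was 2.18-fold lower, at 16.9, 16.1 and 16.9 CPM with RepSox and 35.4, 37.7 and 35.8 CPM with DMSO (adjusted p = 8.14e-08). The groups were well apart. The CDK inhibitor CDKN1A was 1.94-fold lower (adjusted p = 0.00109) and the matricellular CCN2 1.91-fold (adjusted p = 0.000231). VEGFA and TSC22D1 were each 1.27-fold higher. Of 8 tested BMP targets 4 fell and 1 rose. The fallers were ID1, SMAD7, which is counted above as well, and 2 weaker cases. Of these, 1 was below 1 CPM in both groups. The other lost its call without any of 3 libraries in turn (adjusted p 0.0781 to 0.137). ID1, an inhibitor of basic helix-loop-helix factors, stood at 17.8, 17.3 and 18.6 CPM with RepSox and at 42.0, 49.5 and 44.9 CPM with DMSO, 2.54-fold lower with no overlap (log2 -1.35, SE 0.10, adjusted p = 1.67e-08). Its family member ID2 was the riser, 1.71-fold higher at 55.7, 60.6 and 55.5 CPM with RepSox and 31.8, 35.1 and 33.4 CPM with DMSO (adjusted p = 8.18e-07). ID3 was below 1 CPM in every library (log2 -0.02, adjusted p = 0.987).

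**Figure D2:**
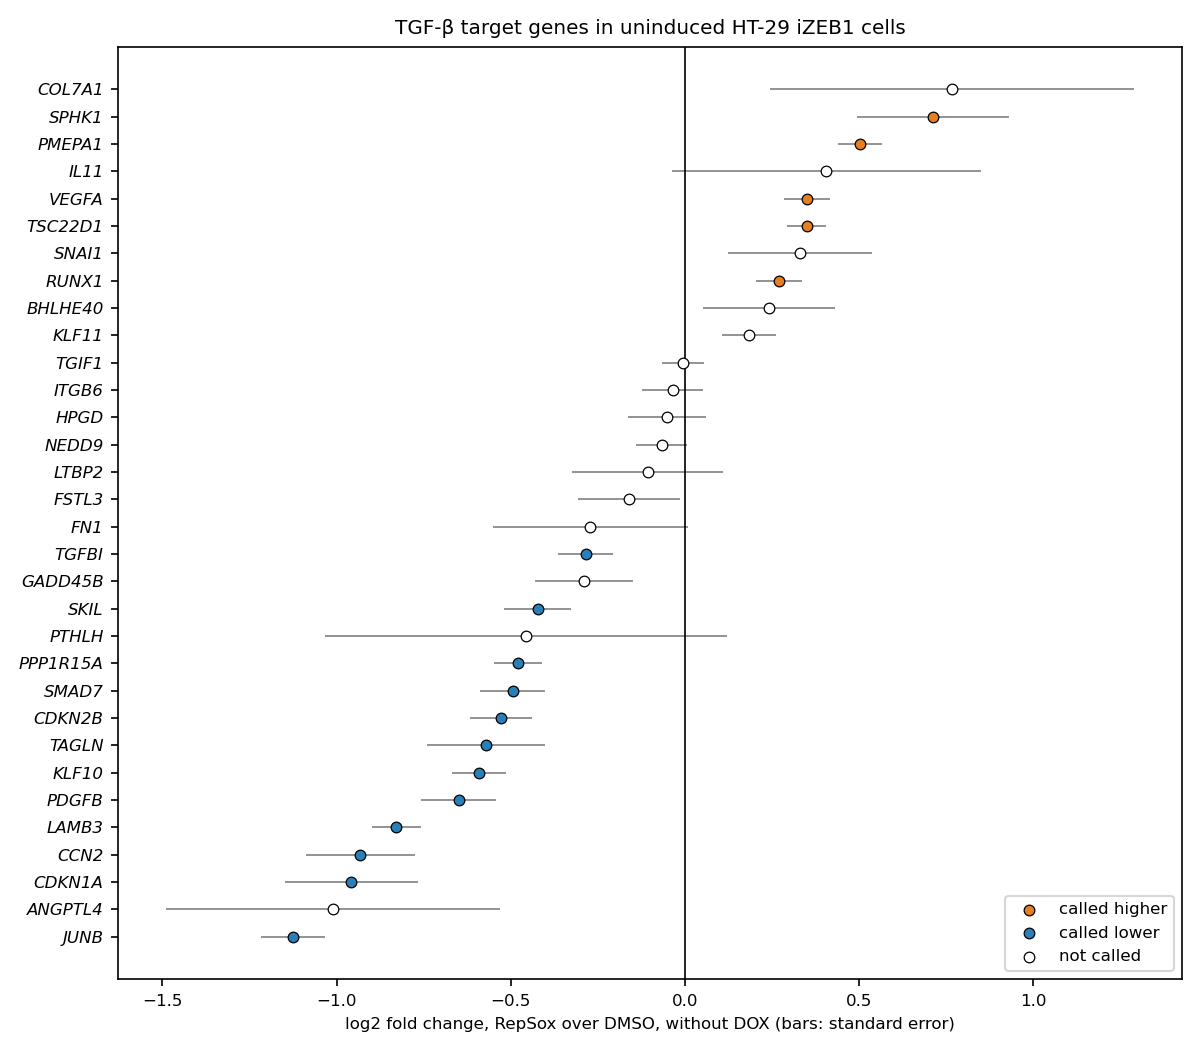
Log2 fold change (RepSox over DMSO, without DOX) of 32 of the 34 tested TGF-β target genes, with bars of 1 standard error and colours for the edgeR call. The 12 genes drawn as called lower run down to JUNB at -1.12, and the 5 called higher include PMEPA1 at 0.50.

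More epithelial genes fell than rose: of 50 tested members 22 fell and 4 rose, with a median log2 change of -0.12. CDH1, which encodes E-cadherin (chr16:68737225-68835548, plus strand, protein-coding, GRCh38), stood at 375, 385 and 367 CPM with RepSox and at 457, 446 and 478 CPM with DMSO (1.23-fold lower, log2 -0.29, SE 0.05, adjusted p = 0.000529). The tight-junction adaptor cingulin, CGN, was 1.78-fold lower, at 48.1, 50.2 and 46.5 CPM with RepSox and 84.7, 91.0 and 81.7 CPM with DMSO (adjusted p = 1.34e-07). Both genes were lower in every RepSox library. EPS8L1, an EPS8-like actin regulator, was 1.73-fold lower, keratin KRT19 1.69-fold and desmocollin DSC2 1.6-fold, while the tight-junction genes CGNL1 (1.63-fold), CLDN2 (1.59-fold) and MARVELD3 (1.19-fold) and the transcription factor ELF3 (1.29-fold) rose. Mesenchymal genes fell too, with 8 of 18 tested members lower and none higher and a median log2 change of -0.30. LGALS1, galectin-1, was 2.23-fold lower (adjusted p = 1.64e-06) and the receptor kinase AXL 1.4-fold (adjusted p = 0.0024), and TAGLN was 1.49-fold lower (adjusted p = 0.0178, and 0.0856 and 0.1 without DMSO replicate 3 or RepSox replicate 3). Vimentin, VIM, was below 1 CPM in every library (log2 -0.29, adjusted p = 0.709). Of 5 tested EMT transcription factors ZEB1 and KLF8 fell. ZEB1 (chr10:31318495-31529814, plus strand, protein-coding, GRCh38) stood at 4.93, 5.25 and 5.58 CPM with RepSox and at 7.76, 7.23 and 10.2 CPM with DMSO (1.59-fold lower, log2 -0.67, SE 0.11, adjusted p = 0.000246). Gene counts do not separate the inducible ZEB1 from the cells' own.

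The contacts of epithelium with its matrix fell in several members. Of 12 tested integrins 6 fell and none rose, though 1 rose in 6 of 13 alternative settings. The fallers included ITGA3 (1.8-fold), ITGA1 (1.56-fold), ITGB4 (1.49-fold) and ITGB1 (1.32-fold). Of 12 tested laminin and basement membrane genes 6 fell and LAMB1 rose, the LAMB1 call being lost without DMSO replicate 1 or RepSox replicate 2 (adjusted p = 0.0529 and 0.0537). The epithelial laminin chain LAMA3 was 2.15-fold lower (adjusted p = 8.18e-07), LAMB3 1.78-fold (adjusted p = 1.22e-07) and LAMB2 1.71-fold. The serine protease TMPRSS4 was 1.96-fold and the inhibitor TIMP2 1.71-fold lower, while the metalloproteinase MMP7 was 1.5-fold higher.

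Lists of intestinal lineage markers held both risers and fallers. Of 21 tested enterocyte genes 6 fell (28.6%) and 3 rose (14.3%), with a median log2 change of -0.10. Over all tested genes 12.8% fell and 12.5% rose. KRT20, a keratin of mature surface epithelium, stood at 62.6, 59.9 and 69.4 CPM with RepSox and at 161, 151 and 156 CPM with DMSO (2.43-fold lower, adjusted p = 3.46e-09). The brush-border genes CDHR5 (2.94-fold) and VIL1 (1.62-fold) were lower, and carbonic anhydrase CA12 (1.64-fold) and the nuclear receptors HNF4G (1.33-fold) and HNF4A (1.22-fold) were higher. Of 28 tested goblet and secretory genes 7 rose (25%) and 4 fell (14.3%), with a median of 0.11. The count that rose was 4 without DMSO replicate 2 or without RepSox replicate 3. The gel-forming mucins MUC5B (3.93-fold) and MUC2 (1.97-fold) rose at levels under 3 CPM. MUC20 (2.8-fold), whose reads may be shared with the pseudogene MUC20P1, the sialyltransferase ST6GALNAC1 (2.19-fold) and the disulfide isomerase AGR2 (1.33-fold) were lower.

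Of 6 tested CEACAM genes 5 rose and none fell, with a median log2 change of 1.94. CEACAM5 stood at 16.7, 17.9 and 19.7 CPM with RepSox and at 5.79, 4.26 and 5.25 CPM with DMSO (3.55-fold higher, adjusted p = 1.09e-08). CEACAM7 was 26.5-fold higher at 3.56, 3.17 and 3.81 CPM with RepSox and 0.334, 0 and 0.0552 CPM with DMSO (adjusted p = 1.12e-06). CEACAM3 had 35 counts summed over 3 libraries with RepSox and 2 with DMSO. Reads of these related paralogs may be split among them in part, so each count carries some uncertainty. CEACAM1, the member that did not pass, stood at 316 ± 5.23 CPM with RepSox and 329 ± 13.9 CPM with DMSO (SD, n = 3 each). Of 17 tested ion transport genes 8 rose and 2 fell: the chloride channel regulator CLCA4 (5.86-fold), the potassium channel subunits KCNE3 (1.74-fold) and KCNQ1 (1.72-fold) and the NKCC1 cotransporter SLC12A2 (1.68-fold) were higher. The count that fell was 1 without DMSO replicate 1 or RepSox replicate 2. The water and glycerol channel AQP3 was 2.84-fold lower, at 115, 101 and 102 CPM with RepSox and 336, 286 and 279 CPM with DMSO (adjusted p = 2.52e-08).

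Growth and stem cell genes were split. MYC rose 1.92-fold, to 397, 413 and 368 CPM with RepSox against 204, 209 and 199.9 CPM with DMSO (log2 0.94, SE 0.07, adjusted p = 1.24e-08), with no overlap. Of 21 tested WNT target and stem cell genes 5 rose (23.8%) and 4 fell (19%), against 12.5% and 12.8% of all tested genes. PROM1, a pentaspan membrane protein, was 2.09-fold higher and LGR5, a receptor of crypt stem cells, 1.37-fold higher. The WNT inhibitors DKK1 (2.1-fold) and AXIN2 (1.65-fold), which are counted in this list, were lower. SP5 (log2 -0.52) and SOX9 (log2 -0.21) were lower too. The SP5 call was lost without any of 5 libraries in turn, and that of SOX9 without DMSO replicate 1. In all, 2 genes of the list fell without DMSO replicate 1. Of 21 tested immediate-early and AP-1 genes 8 fell and 2 rose, with the RNA-binding ZFP36 1.51-fold lower beside EGR1 and JUNB, and the antiproliferative BTG2 1.72-fold higher. Of 24 tested ERK output genes 7 fell and 4 rose, with ETV1 1.76-fold lower and the EGF-family ligand AREG 1.33-fold higher. The receptor gene FGFR2 (1.62-fold), the enteric hormone FGF19 (1.47-fold) and its receptor FGFR4 (1.29-fold) rose, 3 of 7 tested genes of the FGF19 list. FGF19 stood at 174, 164 and 167 CPM with RepSox and at 117, 115 and 111 CPM with DMSO (adjusted p = 3.66e-05). Of 40 tested S-phase genes 10 rose (25%) and 2 fell (5%) with a median of 0.12. The count that rose was 5 or 6 without DMSO replicate 1 or 3 or RepSox replicate 1 or 2. RRM2, a ribonucleotide reductase subunit, and cyclin CCNE2 were the fallers (1.37-fold and 1.6-fold). Of 24 tested p53 targets 10 fell and 4 rose, with TP53INP1 2.59-fold lower, and of 16 tested BCL2 family genes 6 fell and 3 rose, with BCL2L15 2.84-fold lower beside BMF. Without DMSO replicate 3, 1 BCL2 family gene rose, and without RepSox replicate 2, 3 fell.

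Among stress and metabolic groups, amino acid genes rose, and xenobiotic, NRF2 and interferon genes fell. Of 29 tested ATF4 and amino acid stress genes 13 rose and 1 fell (none without DMSO replicate 3 or RepSox replicate 2), with a median log2 change of 0.24: the serine synthesis genes PHGDH (1.54-fold) and PSAT1 (1.51-fold) and the transporters SLC1A4 (1.61-fold) and SLC7A5 (1.47-fold) led. Of 11 tested fatty acid synthesis genes 5 rose, among them the desaturase SCD (1.34-fold), and none fell (2 with the 6 libraries alone). Of 25 tested sterol genes 6 rose (24%) and 3 fell (12%), against 12.5% and 12.8% of all tested genes. The count that rose was 3 without DMSO replicate 1, RepSox replicate 1 or RepSox replicate 3. Of 10 tested aryl hydrocarbon receptor genes 6 fell and 1 rose. CYP1B1, a cytochrome P450, stood at 16.0, 12.8 and 15.5 CPM with RepSox and at 37.9, 36.0 and 38.9 CPM with DMSO (2.54-fold lower, adjusted p = 1.29e-07), and the aldehyde dehydrogenase ALDH3A1 was 2.13-fold lower. CYP1A1 had 6 counts summed over 3 libraries with RepSox and 54 with DMSO (adjusted p = 0.00447). Of 26 tested NRF2 targets 13 fell and none rose, with a median of -0.25, though 1 or 2 rose in 5 of 13 alternative settings. Heme oxygenase HMOX1 (2.13-fold), the oxidative stress gene OSGIN1 (2.41-fold) and AKR1C3 (1.72-fold) were lower, the last of a family of close paralogs.

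Of 38 tested interferon-stimulated genes 26 fell (68.4%, against 12.8% of all tested genes) and none rose, and their median log2 change was -0.67. IFIT1, an antiviral RNA-binding protein, stood at 60.6, 59.6 and 71.4 CPM with RepSox and at 103, 128 and 158 CPM with DMSO (2.03-fold lower, log2 -1.02, SE 0.17, adjusted p = 0.000224). The antiviral genes RSAD2 and MX2 were 2.25-fold and 2.21-fold lower and the interferon signal factor IRF9 1.98-fold. The groups did not overlap for these genes, but the DMSO libraries differed among themselves. The list held 0.260%, 0.259% and 0.310% of all counts in the RepSox libraries and 0.372%, 0.429% and 0.501% in the DMSO libraries (two-sided exact permutation p = 0.1, the smallest that 3 against 3 allow). Leaving out 1 library at a time gave 20 to 28 fallers. Of 19 tested MHC class I genes 5 fell (26.3%), B2M 1.3-fold among them. This count was 1 to 3 without DMSO replicate 3, RepSox replicate 2 or RepSox replicate 3. The mitochondrially encoded genes took 2.30%, 3.66% and 3.86% of counts with RepSox and 4.53%, 3.97% and 4.89% with DMSO (exact permutation p = 0.1). Their median log2 change was -0.45 over 13 genes, with 2 called lower, MT-ND1 and MT-CYB. None was called without RepSox replicate 1, DMSO replicate 1 or DMSO replicate 3, and 5 without RepSox replicate 3. Other settings called 12 lower (no filter), 11 (the 6 libraries alone), 9 (replicate block) and 0 (DESeq2). The part of this shift in other results was not tested.

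**Figure D3:**
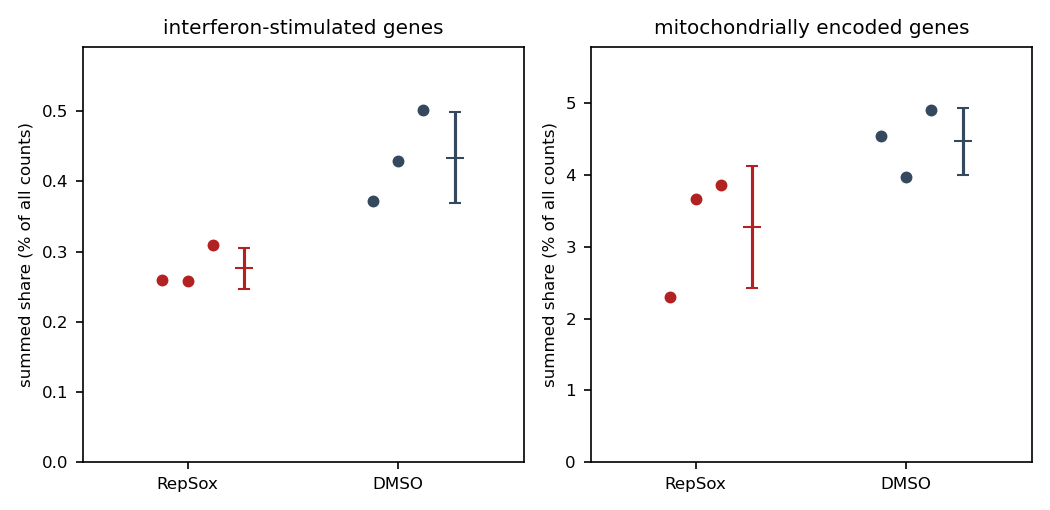
Summed share of all counts (%, axes from 0) of 38 interferon-stimulated genes (left) and 13 mitochondrially encoded genes (right), 1 point per library, RepSox left and DMSO right in each panel, with the mean ± SD of 3 libraries. The groups do not overlap in either panel, and RepSox replicate 1 has the lowest mitochondrial share, 2.30%.

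**Figure D4:**
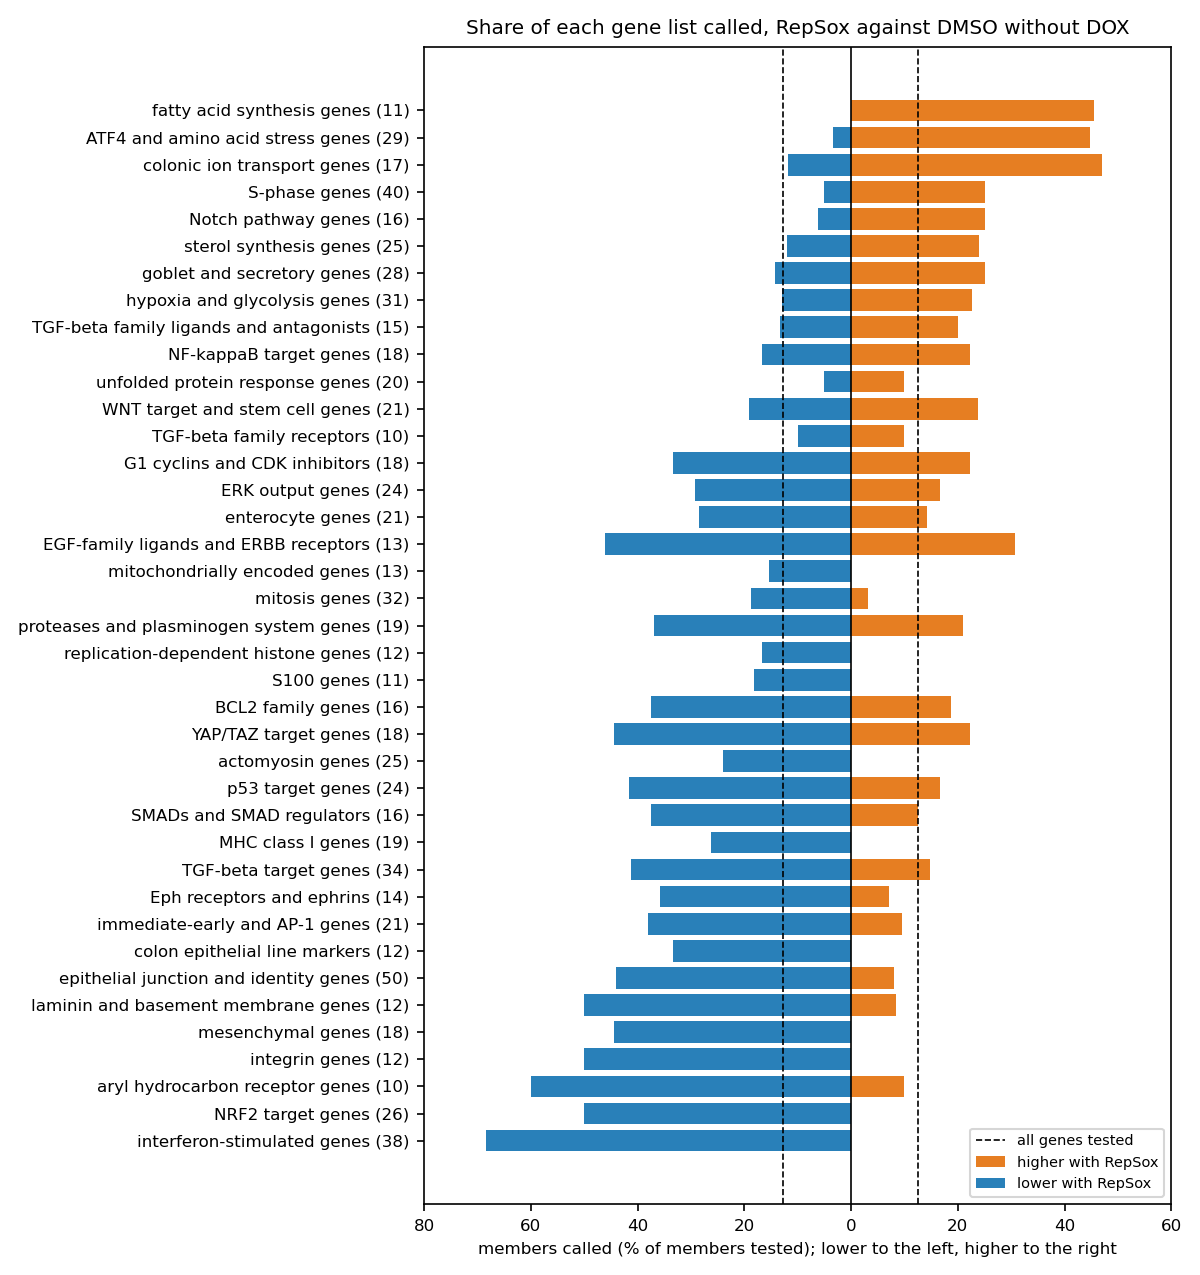
Share of tested members called higher (right) and lower (left) with RepSox, for each list with at least 10 tested members, whose number is in brackets. Dashed lines give the shares over all tested genes, 12.5% higher and 12.8% lower, and the bars of interferon-stimulated genes reach farthest on the lower side, at 68.4%.

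Whether uninduced cells respond to RepSox like DOX-induced cells was tested as the difference of the responses, which share no library. With DOX, RepSox changed 8864 genes (52.2%), 26.8% higher and 25.5% lower. Of the 4290 genes called without DOX, 3269 moved the same way with DOX, which is 76.2% of the calls without DOX and 36.9% of those with DOX. The opposite way was taken by 254 genes, 76 of them higher without DOX and lower with it. As a description over 16978 genes, which are not independent, Pearson's r between the log2 changes was 0.49 and Spearman's rho 0.51. The difference itself was called for 3834 genes (22.6%): for 1632 (9.61%) the response without DOX was the more positive and for 2202 (13.0%) the more negative. More positive differences made up 42.6% of these calls, and 53% of the calls made with total counts as the scaling.

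The epithelial and S-phase lists set the responses apart most plainly. Epithelial levels without DOX summed to 14320 to 14778 CPM with RepSox and 14153 to 15588 CPM with DMSO. With DOX the sums were 14554 to 15144 CPM with RepSox and 7295 to 8078 CPM with DMSO. S-phase sums without DOX were 5538 to 5776 CPM with RepSox and 5145 to 5399 CPM with DMSO. With DOX they were 5374 to 5429 CPM with RepSox and 2894 to 3282 CPM with DMSO. In both lists the DMSO libraries with DOX had the lowest sums. Among 50 epithelial genes 40 had a more negative response without DOX and 4 a more positive one, and their median log2 change was -0.12 without DOX and 0.88 with it. CDH1 had a log2 change of -0.29 without DOX and 0.58 with DOX (difference -0.88, adjusted p = 1.14e-07). Of 40 S-phase genes 38 had a more negative response without DOX, with medians of 0.12 without and 0.88 with DOX. Of 38 interferon genes 1 differed, with medians of -0.67 and -0.62, which does not show that the responses were equal. With DOX, the list held 0.437%, 0.725% and 0.393% of all counts in the DMSO libraries. The RepSox libraries with DOX had 0.357%, 0.312% and 0.318%. The high DMSO replicate 2 bears on both the median and the spread. ZEB1, ANGPTL2 and TMPRSS4 were among the single genes with the largest differences. Without DOX, ZEB1 stood at 5.25 ± 0.323 CPM with RepSox and 8.38 ± 1.56 CPM with DMSO, and in the presence of DOX at 15.7 ± 1.39 CPM with RepSox and 372 ± 7.18 CPM with DMSO (SD, n = 3 each; adjusted p of the difference 2.85e-12). The secreted ANGPTL2 stood at 0.779 ± 0.437 CPM with RepSox and 0.703 ± 0.218 CPM with DMSO without DOX, and in its presence at 0.868 ± 0.0155 CPM with RepSox and 17.1 ± 2.35 CPM with DMSO (SD, n = 3 each). TMPRSS4 stood at 53.4 ± 3.16 CPM with RepSox and 104 ± 2.2 CPM with DMSO without DOX, and in its presence at 32.7 ± 4.79 CPM with RepSox and 5.4 ± 0.553 CPM with DMSO (SD, n = 3 each). In all 3 genes the 2 RepSox groups lay closer together than the 2 DMSO groups. The 3 were picked from genes with the largest differences, where these gaps must differ, so they cannot stand for other genes. The summed levels of the epithelial and S-phase lists had the same pattern, and these lists too were singled out for their differences.

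Several of the leading genes differed as well. The rise of MRAS was larger without DOX, log2 4.18 against 2.66 with DOX (adjusted p of the difference 1.27e-05), at 17.1 ± 1.35 CPM with RepSox and 2.71 ± 0.429 CPM with DMSO in the presence of DOX (SD, n = 3 each). FCGBP rose without DOX and fell with it, log2 1.87 against -0.61 (adjusted p = 3.41e-09), and TEK had 1.82 against -0.24 (adjusted p = 2.80e-07). The rises of CEACAM6 and CEACAM5 were smaller without DOX, log2 2.05 against 3.83 and 1.83 against 3.44. SULT2B1 fell more without DOX, log2 -2.78 against -0.78 (adjusted p = 7.89e-07), and BMF less, -2.65 against -4.71 (adjusted p = 4.48e-07). MUC20 and VIL1 fell without DOX and rose with it, log2 -1.49 against 1.61 and -0.69 against 1.20, and the antiproliferative BTG2 did the opposite, 0.79 against -0.68. ID1 fell in both states, log2 -1.35 against -1.33, and the difference of -0.02 (SE 0.13) did not pass (adjusted p = 0.95).

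**Figure D5:**
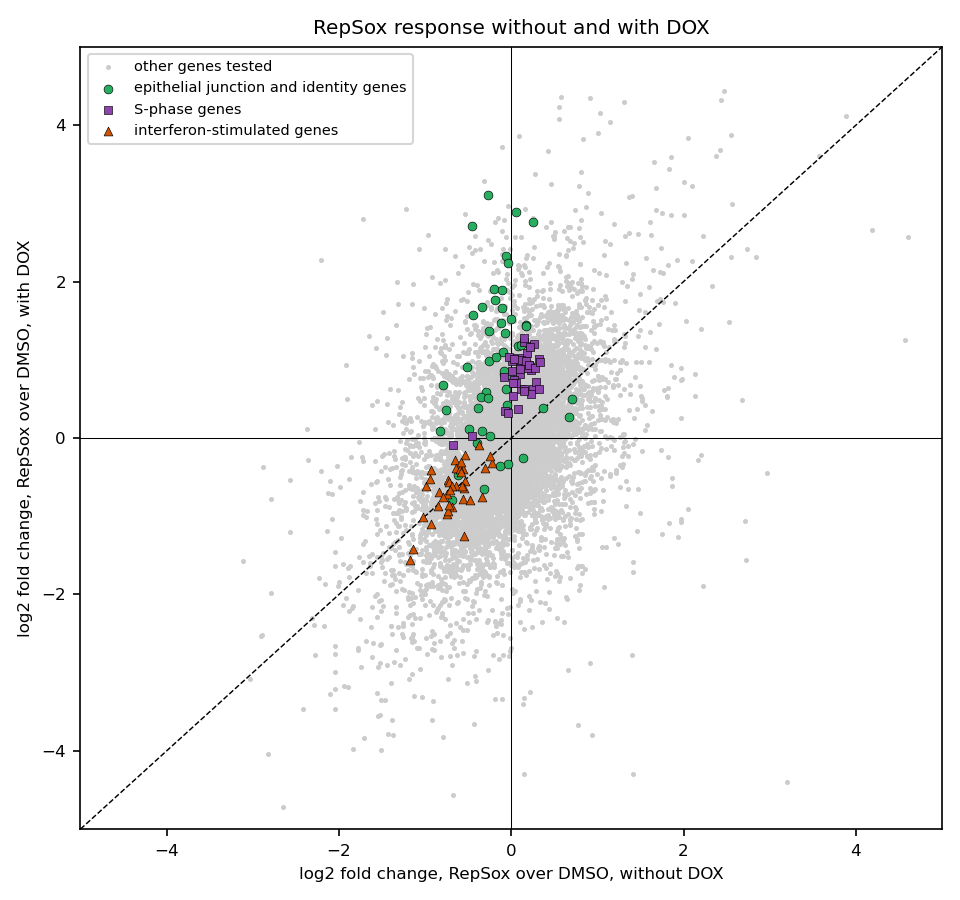
Log2 fold change of RepSox over DMSO without DOX (x axis) and with DOX (y axis) for the tested genes, 14 of which lie outside the axes. Most epithelial (circles) and S-phase genes (squares) lie above the dashed line of equal response, and interferon genes (triangles) lie near it on the negative side.

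The response was also set against that of SW620, again with no shared library, in a fit of all 18 libraries over 19107 genes. In that fit RepSox changed 4799 genes in uninduced HT-29 iZEB1 and 2019 in SW620 (10.6%, with 5.75% higher and 4.81% lower). The same direction was taken by 733 genes, 15.3% of the calls in HT-29 iZEB1 and 36.3% of those in SW620, and opposite directions by 259. The difference was called for 1982 genes (10.4%), 953 (4.99%) more positive and 1029 (5.39%) more negative in HT-29 iZEB1. This balance turned with the scaling, at 1127 more positive and 966 more negative with library totals and 767 more positive and 1145 more negative with DESeq2 size factors. MRAS had a log2 change of 4.19 in HT-29 iZEB1 and -0.38 in SW620, where it stood at 1.44 ± 0.238 CPM with RepSox and 1.87 ± 0.0709 CPM with DMSO (SD, n = 3 each; adjusted p of the difference 8.32e-13). The arginase gene ARG2 rose 2.94-fold in HT-29 iZEB1 and had a log2 change of -1.02 in SW620. The serine protease PRSS22 fell 1.72-fold in HT-29 iZEB1 and had a log2 change of 2.08 in SW620, and TAGLN had -0.57 and 2.07. Of 34 TGF-β targets 13 had a more negative response in HT-29 iZEB1 and none a more positive one, and 14 rose and 2 fell in SW620. Of 12 integrins 9 likewise had the more negative response in HT-29 iZEB1. ID1 fell in both, with log2 -0.48 in SW620 and a called difference of -0.86 (adjusted p = 2.91e-05).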

How the data were processed

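RNA was sequenced from 18 libraries, 3 in each of 6 groups, of which the 6 of uninduced HT-29 iZEB1 cells (36.5 to 38.5 M counts each) are described here. The deposited table holds raw counts per gene symbol, 1 column per library. HISAT2 2.2.0 and featureCounts 2.0.0 are named with GRCh38.p13 per the submitters' processing notes, besides DESeq2 1.34.0 and FastQC 0.11.9. Whether counting used strand, and which annotation, is not given in the sources used here, so overlapping and antisense genes cannot be told apart. Counts were compared with the quasi-likelihood test of edgeR 4.0.16 in R 4.3.3, on all 12 HT-29 iZEB1 libraries for the RepSox effect and for its difference without and with DOX, and on all 18 for the difference from SW620. The fit used group means, TMM scaling and a filter of at least 10 counts (filterByExpr), which left 16978 and 19107 of 60642 genes. The biological coefficient of variation was 7.82% and 7.04%. P-values were adjusted by the Benjamini-Hochberg method over all tested genes, and a gene was called at an adjusted p below 0.05. The SE is an absolute log2 fold change over the square root of the F statistic. For the SE alone, that fold change came from a second fit with no prior count added. The scripts were tested on simulated counts. Between replicate libraries of HT-29 iZEB1 without DOX, chi-square per degree of freedom was 5.97 to 14.9 (genes with at least 20 counts). This is more than sampling noise alone gives, and each library was kept as a sample. It does not show that they were separate cultures.

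The genes, the 46 lists and the rules were chosen with earlier results of these data known. Named genes are ZEB1, CDH1, VIM, TGFBR1, SMAD7, SKIL, ID1, ID2, ID3, FGF19 and CYP1A1, the 15 largest rises and falls with at least 5 CPM and no overlap between groups, up to 4 called members of each list in each direction with at least 1 CPM, the 8 largest differences of each sign from the DOX and SW620 responses, and the 6 smallest p in each direction. Other genes given by value were chosen after their values were seen. List members that failed the filter are left out of the list counts, and a few genes are not reported here by name. Positions are those of GENCODE 29 for the 254 of 259 named genes with 1 entry. Alternatives were scaling by totals, DESeq2 size factors, the Wald test of DESeq2 1.42.0, other filters, a replicate block, each library left out and the 6 libraries alone.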

Additional observations from a re-analysis of the deposited data

Results flagged for a closer look

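The test of the difference between responses picked out the results given here. With 3 libraries a group, no library was tested for standing apart within its group. The RepSox response without DOX differed from that with DOX in 3834 genes, and from that in SW620 in 1982 genes (edgeR quasi-likelihood test). A difference is the log2 change without DOX minus the other one, so that a positive value means the more positive response in uninduced HT-29 iZEB1 cells.

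Against DOX-treated cells the 8 largest positive differences were those of ANGPTL2 (4.44), ZEB1 (3.9), SYNPO (3.22), DOCK11 (3.15), EMP3 (3.03), HEG1 (3.0), NAV3 (2.71) and MAP1A (2.7). HEG1, a transmembrane protein of endothelial and other junctions, rose without DOX (log2 1.42) and had -1.59 with DOX. SYNPO, DOCK11, ANGPTL2, NAV3 and MAP1A were not called without DOX. The 8 largest negative differences were those of MAB21L4 (-4.52), PLA2G4F (-4.49), BICDL2 (-3.6), TMPRSS4 (-3.56), FGF19 (-3.53), TMEM30B (-3.38), MUC20P1 (-3.32) and C1orf210 (-3.19). FGF19 rose in both states, with log2 0.56 without DOX and 4.08 with DOX, while PLA2G4F had -2.21 without DOX and 2.28 with DOX. All 16 differences stayed called in each alternative setting run for them.

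Against SW620 the positive differences were those of MRAS (4.57), ADAMTS15 (3.42), ARG2 (2.58), FCGBP (2.56), WNT11 (2.3), GPR63 (2.27) and AC022075.1 (2.26). The GPR63 call was lost without any of 5 libraries in turn (adjusted p 0.0509 to 0.123). The negative differences were those of SCEL (-3.24), ANKRD22 (-3.08), PRDM1 (-2.86), PRSS22 (-2.85), UCA1 (-2.8), TAGLN (-2.64) and LDB3 (-2.62). The UCA1 call was lost without any of 4 SW620 libraries in turn (adjusted p 0.0741 to 0.0876), and that of LDB3 without DMSO replicate 2 of uninduced HT-29 iZEB1 (adjusted p = 0.0502). ZNF311 (adjusted p of the difference 0.0113) has no count in the RepSox libraries of SW620, and TMEM30B (adjusted p 0.0137, and 0.105 without RepSox replicate 2 of SW620) none in its DMSO libraries, so no size is given for them.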

How the results depend on the processing

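The count of genes called in uninduced HT-29 iZEB1 cells was 4290 in the edgeR fit of 12 libraries, 4260 with scaling by totals, 4285 with DESeq2 size factors, 4554 with the DESeq2 test, 4327 without a filter, 4269 with the stricter one, 5580 with the 6 libraries alone and 3207 to 3591 with 1 library left out. The differences were called for 3834 genes against DOX (3221 to 4393 with 1 library left out) and 1982 against SW620 (1521 to 1844). Among 249 called named genes 199 kept the call in every alternative. The replicate numbers did not pair the libraries (same-number correlations of 0.0355, -0.00812 and 0.0344), and the replicate block gave 4446 calls, 2207 higher and 2239 lower, 3925 differences against DOX and 2084 against SW620. Among the named genes, the ones checked for sign, only uncalled genes changed sign. ID3 had a log2 change of 0.02 with the replicate block, and -0.25 to 0.61 with 1 library left out. ANGPTL2 ran from -0.37 to 0.44 and VIM from -0.6 to 0.03 with 1 library left out. The cause was not tested. Several list counts moved by over 1.5 times in other settings. The 6 libraries alone gave 17 S-phase risers, 11 MHC class I fallers, 10 mitosis fallers, 9 WNT and stem cell risers, 5 fallers among TGF-β ligands, 5 unfolded protein response risers and 11 mitochondrially encoded fallers, and DESeq2 gave 8 WNT and stem cell risers, 4 fallers among TGF-β ligands, 3 Eph and ephrin risers and no mitochondrially encoded faller. Without a filter 11 MHC class I and 12 mitochondrially encoded genes fell. At this depth genes of a few counts, such as CYP1A1, carry wide counting error.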

Other observations

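Lists not described so far, given with values alone, held further called genes of uninduced HT-29 iZEB1 cells. CPM and calls of the edgeR quasi-likelihood test are as in the report, RepSox against DMSO. Over all tested genes 25.3% were called. The mitosis (21.9%), actomyosin (24%), S100 (18.2%), unfolded protein response (15%) and histone (16.7%) lists had smaller shares called than this. Of 13 tested EGF-family ligands and ERBB receptor genes 6 fell and 4 rose, and 2 rose without DMSO replicate 1 or RepSox replicate 3. LRIG1, a receptor that turns ERBB signals down, stood at 49.1, 46.1 and 46.3 CPM with RepSox and at 25.4, 25.8 and 26.6 CPM with DMSO (1.82-fold higher, adjusted p = 4.82e-07). TGFA, a ligand of the EGF receptor, was 1.31-fold lower, ERBB2 1.21-fold and ERBB3 1.14-fold. Of 18 tested YAP/TAZ targets 8 fell and 4 rose, with a median log2 change of -0.12. MYOF, a membrane repair protein, stood at 57.2, 62.6 and 54.2 CPM with RepSox and at 110, 116 and 117 CPM with DMSO (1.97-fold lower, adjusted p = 4.15e-09). FJX1, which encodes a Golgi-resident or secreted glycoprotein, was 2.12-fold higher. Of 31 tested hypoxia and glycolysis genes 7 rose and 4 fell, with a median of 0.11. The carbonic anhydrase CA9 stood at 45.5, 40.7 and 45.8 CPM with RepSox and at 25.8, 19.3 and 25.2 CPM with DMSO (1.87-fold higher, adjusted p = 8.77e-06), hexokinase HK2 was 1.46-fold higher, and the glucose transporter SLC2A1 was 1.28-fold lower.

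Of 32 tested mitosis genes 6 fell and 1 rose, with the kinesin KIF20A 1.58-fold and the proliferation marker MKI67 1.24-fold lower, and survivin, BIRC5, 1.26-fold higher. KIF20A stood at 58.1, 57.8 and 56.6 CPM with RepSox and at 88.7, 93.5 and 89.9 CPM with DMSO (adjusted p = 1.33e-06). Of 18 tested G1 cyclins and CDK inhibitors 6 fell and 4 rose, the fallers including CDKN2C (1.84-fold) and CDKN2B (1.44-fold). None of these risers was called without DMSO replicate 3 or RepSox replicate 1, and 2 were without DMSO replicate 1, DMSO replicate 2 or RepSox replicate 3. Of 18 tested NF-κB targets 4 rose and 3 fell, with the chemokine gene CXCL1 1.87-fold higher. Of 16 tested Notch genes 4 rose, the feedback regulator NRARP by 1.53-fold, and 1 fell (2 without DMSO replicate 1). Of 14 tested Eph receptors and ephrins 5 fell, EPHB6 by 1.53-fold, and EPHA10 rose, and 3 fell without DMSO replicate 1, DMSO replicate 2 or RepSox replicate 1. The EPHA10 call was lost without DMSO replicate 2 (adjusted p = 0.0634) or RepSox replicate 2 (adjusted p = 0.0593). Of 25 tested actomyosin genes 6 fell and none rose (2 with the 6 libraries alone), with the myosin heavy chain MYH14 1.33-fold lower. Of 11 tested S100 genes S100A14 and S100A13 fell, and S100A13 lost its call without any of 4 libraries in turn (adjusted p 0.0556 to 0.0771). Of 20 tested unfolded protein response genes 2 rose (1 without DMSO replicate 1, DMSO replicate 2 or RepSox replicate 3) and 1 fell. Of 12 tested replication-dependent histone genes 2 fell, with H2BC21 2.4-fold lower, and of 19 tested protease and plasminogen genes 7 fell and 4 rose, 2 of them without DMSO replicate 3.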
